A study of Homo sapiens with 36 samples.

Results

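The cytosolic ribosomal protein genes were followed in HCT-116 cells treated with oxaliplatin (OXPT), and *RPS27L* rose and *RPL3* fell past the threshold in each comparison with untreated cells. The *RPS27L* calls held in every alternative fit, whereas *RPL3* calls were lost in some. *RPL10A* was also called lower in WT cells, a call that was lost in 16 of the 24 fits that left out 1 library, and no difference in its response between WT and KO was detectable. Members were the protein-coding genes named *RPLP0*, *RPLP1*, *RPLP2* or *RPSA*, or *RPL* or *RPS* followed by digits and at most one of the suffixes A, L and X, outside chromosome Y. This rule, which used names and no measured value, found 81 genes of the 62757 listed in the files. Of these, 49 encode proteins of the large subunit and 32 proteins of the small subunit, and they lie on 21 chromosomes. For 78 members the raw count averaged 64 or more in some group, which was the condition for testing. The paralogues *RPL3L*, *RPL10L* and *RPL39L* did not reach it and were not tested. The rule leaves out *FAU*, which encodes a ribosomal protein fused to a ubiquitin-like protein, and paralogues such as *RPL22L1*, which are described separately.

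The cytosolic ribosome is built from a small subunit, which reads the mRNA, and a large subunit, which joins amino acids, and most of its proteins are present in a single copy. Most ribosomal protein mRNAs begin with a cytosine followed by a run of pyrimidines, the terminal oligopyrimidine (TOP) tract, through which mTOR signalling controls their translation. RPL5 and RPL11, when not built into ribosomes, bind MDM2 together with the smallest rRNA of the large subunit and so link ribosome assembly to p53, while RPS27L is a paralogue of RPS27 known as a p53-induced gene. RPL3, RPL10A and RPL12 are among the ribosomal proteins known for alternatively spliced transcripts that are removed by nonsense-mediated decay.

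PolyA RNA was sequenced from HCT-116 colorectal cancer cells, WT or *FBXW7*-/- (KO), the latter edited with Cas9 and lacking the F-box protein through which an SCF ubiquitin ligase binds its substrates. KO cells received esiCT, a control esiRNA, esiHDAC4, directed against *HDAC4*, or esiCT with #11, a PROTAC that joins a class IIa HDAC ligand to a VHL ligand. Transfection lasted 48 h, and OXPT at 50 µM was present for the last 24 h, with solvent-treated cells, called untreated, as controls. The 24 libraries analysed form 8 groups of 3, since WT cells and the 3 kinds of KO cells were each sequenced with OXPT and untreated. For the 6 WT libraries the label entries disagree on the esiRNA, either esiCT or esiHDAC4, so WT stands for either and every comparison of KO with WT carries that doubt. The dose of #11 is 1 µM in 1 label entry and 10 µM in another. A further 12 WT libraries, whose entries give opposite OXPT states, entered no comparison. Nothing in the labels says whether replicates were separate cultures or KO cells more than 1 clone, so p-values measure the spread between these libraries, which may be technical.

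The first bases of the transcripts are shown because the TOP tract is what most members share and the rule did not use. Windows hold 10 bases before and 20 from the RefSeq start on GRCh38.p14, 5′ to 3′, and capitals mark the motifs searched, which may overlap: the letters CTTTC, the letters CTTTT, the letters CTCTT and the letters CCTTT, on both strands. The first 3 genes below are those called after OXPT, *RPS27* is the paralogue of *RPS27L*, *RPL12* lay among the lowest members after OXPT, *RPL11* binds MDM2, *RPS6* is the S6 kinase substrate of the small subunit, and *RPLP1* is a stalk protein.
RPS27L, chr15:63157458-63157487, minus strand: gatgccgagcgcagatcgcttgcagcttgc
RPL3, chr22:39319604-39319633, minus strand: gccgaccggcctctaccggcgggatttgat
RPL10A, chr6:35468391-35468420, plus strand: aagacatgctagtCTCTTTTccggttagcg
RPS27, chr1:153990752-153990781, plus strand: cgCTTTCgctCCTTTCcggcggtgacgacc
RPL12, chr9:127451387-127451416, minus strand: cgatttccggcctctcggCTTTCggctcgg
RPL11, chr1:23691796-23691825, plus strand: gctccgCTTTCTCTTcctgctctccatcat
RPS6, chr9:19380217-19380246, minus strand: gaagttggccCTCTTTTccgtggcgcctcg
RPLP1, chr15:69452808-69452837, plus strand: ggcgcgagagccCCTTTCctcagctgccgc
A RefSeq window was given for 64 members, and 46 of them (71.9%) held at least 1 motif, against 12.1% of 27305 promoter windows of the same length over all genes. On the other strand the motifs were found in 3.1% of member windows and 9.3% of all windows. The windows of *RPS27L* and *RPL3* held none of these motifs, whereas those of *RPS27*, *RPL10A* and *RPL12* did. The motifs were searched anywhere in the window, so they do not tell whether a TOP tract stands at the start. At the RefSeq start the windows of *RPL3* and *RPL12* both have a C and a short pyrimidine run that no motif covers. The motif marked in *RPL12* lies downstream of that run.

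The files listed between 10725966 and 20527222 counts on genes per library. Read totals on both strands were nearly equal, with a ratio of 1.00 to 1.02, so the unstranded column was used and sense reads cannot be told from antisense reads. In KO cells the *FBXW7* level, in CPM (counts scaled to a common library total), was 16.2, 17.6 and 18.3 untreated, against 16.6, 24.7 and 19.3 in WT, and with OXPT it was 35.4, 44 and 38.4 against 40.3, 32.8 and 12.1. A gene-level count does not show whether the transcripts can make protein, so it checks no label here. *HDAC4* was at 9.79, 9.32 and 16 CPM in untreated KO esiHDAC4 and 19.3, 14.3 and 25.2 in untreated KO esiCT, and with OXPT at 4.45, 3.32 and 3.78 and 6.54, 5.61 and 5.87. The untreated groups overlapped and the OXPT groups did not. The WT libraries, whose entries disagree on the esiRNA, had 18.4, 27 and 18.3 CPM untreated and 8.08, 8.17 and 9.03 with OXPT, above the KO esiHDAC4 values of the same treatment, and no group was drawn from these values. Of the epithelial markers, *EPCAM* lay between 215 and 360 CPM and *CDH1* between 43.4 and 113, whereas *VIL1* stayed at or below 0.48 and was at 0 in 5 libraries. The leukocyte markers *PTPRC* and *CD3E* stayed at or below 0.146 CPM and were at 0 in 20 and 19 libraries. *COL1A1*, a fibroblast collagen, lay between 25.1 and 77.6 CPM, and *COL3A1* stayed at or below 1.44. Of 6 tested epithelial markers, 2 rose with OXPT in KO esiCT and KO esiHDAC4 and 1 in KO #11 and WT, all of them keratins, and their part in the member results was not tested.

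Counts on the 81 members made up 8.27% to 18.8% of the counts on genes, with a median of 12.3%. KO esiCT OXPT replicate 3 held 18.8%, WT untreated replicate 3 held 16.2%, KO esiHDAC4 OXPT replicate 3 held 15.6%, and WT untreated replicate 2 was lowest with 8.27%. The first 3 were also the libraries with most reads not mapped to the genome, at 22.3%, 13.8% and 13.4%, and the last had the fewest, at 7.74%. As group means ± SD (n = 3) the share was 11.9% ± 0.93 in untreated KO esiCT and 13.1% ± 4.99 with OXPT, 11.6% ± 0.73 and 12.3% ± 2.96 in KO esiHDAC4, 13.4% ± 0.58 and 13.1% ± 0.72 in KO #11, and 12.3% ± 3.97 and 11.9% ± 1.43 in WT. Within each treatment the untreated and OXPT ranges overlapped, and each difference between the means was smaller than the larger SD of the pair.

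**Figure D1:**
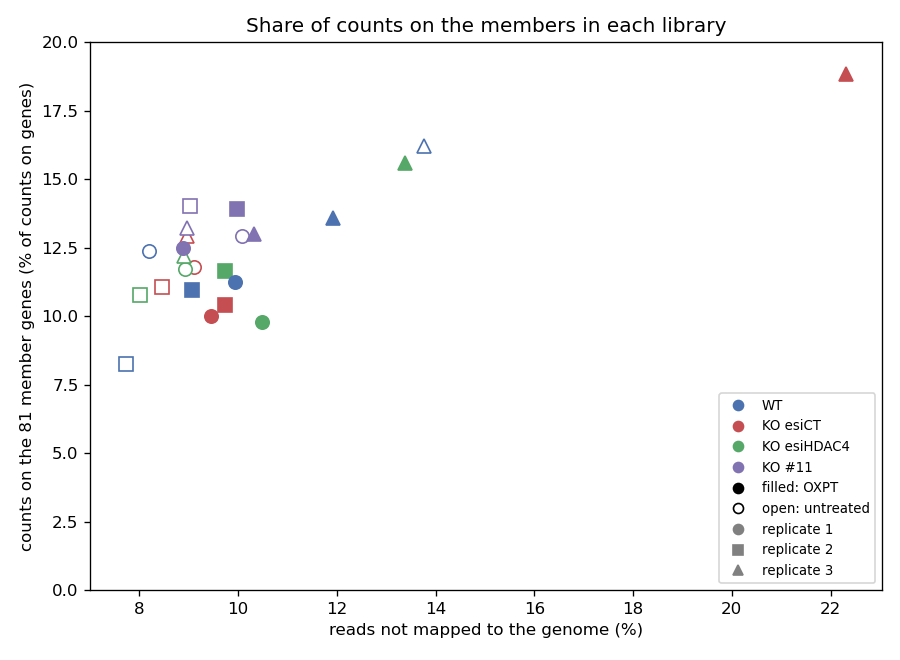
Counts on the 81 members as a percentage of counts on genes (vertical axis) against the percentage of reads not mapped (horizontal axis) in the 24 libraries, by cells and treatment (colour), OXPT (filled) and replicate number (shape). The 3 libraries with most unmapped reads, all numbered 3, also hold the highest shares, 15.6% to 18.8%.

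Nearly all members were high or low together in these libraries. In KO esiCT OXPT, replicate 3 held the highest value of the group for 74 of 78 members, and the highest and lowest replicate differed by a median of 2.77-fold over members. The same held for 74 members in KO esiHDAC4 OXPT replicate 3 and 71 in WT untreated replicate 3, while 74 members were lowest in WT untreated replicate 2. In the 2 KO #11 groups, the median fold between the highest and the lowest replicate was 1.16 untreated and 1.20 with OXPT. Other genes with canonical transcripts under 1000 nt took 16.4% of counts in KO esiCT OXPT replicate 3 and 8.95% in WT untreated replicate 2, the extremes of the 24 libraries. They did not stand out in KO esiHDAC4 OXPT replicate 3 and WT untreated replicate 3, with 12.1% and 12.3%. WT OXPT replicate 1 had 13.4%. *MDM2*, which makes a long and short-lived mRNA, was at 421, 468 and 177 CPM in KO esiCT OXPT, with replicate 3 lowest. What part RNA quality, unmapped reads or library preparation had in these differences was not tested.

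**Figure D2:**
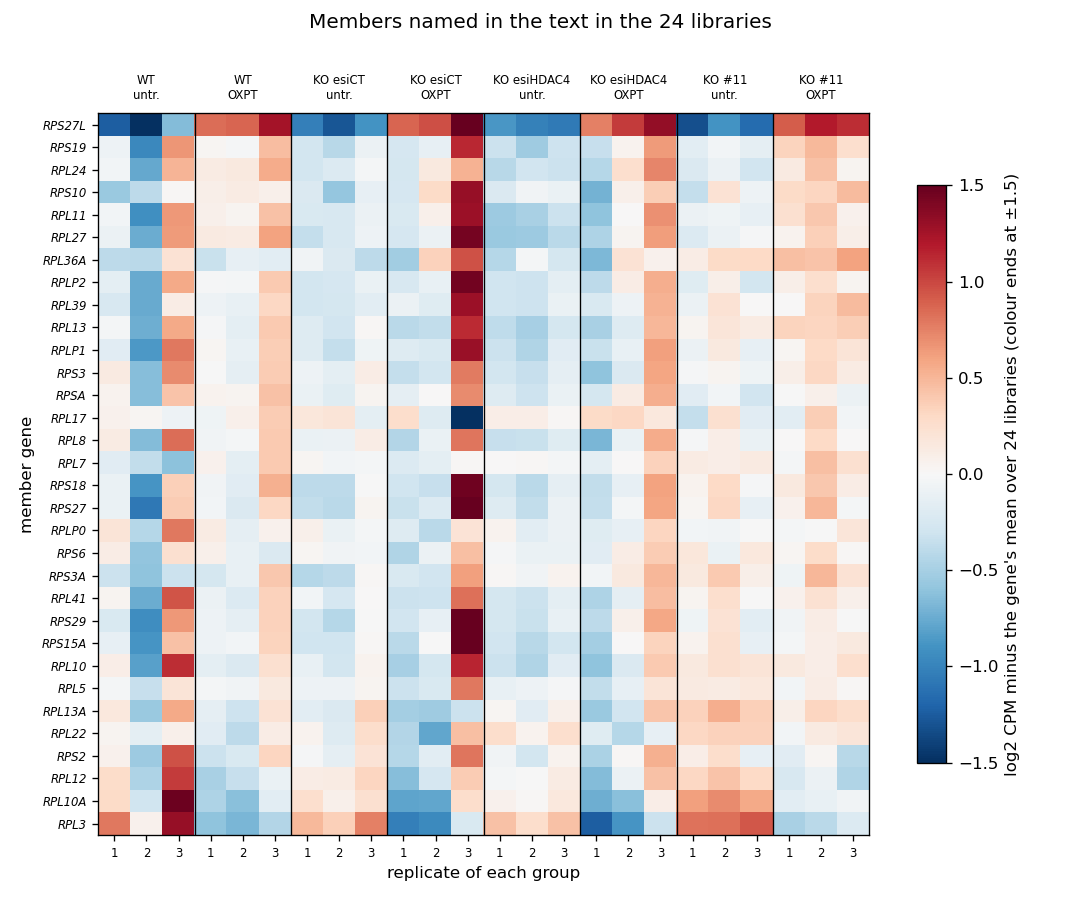
Each member's log2 CPM after TMM (trimmed mean of M values scaling) minus its mean over 24 libraries, for the tested members named in the text (rows, ordered by the log2 fold change with OXPT in KO #11) and the 24 libraries (columns). KO esiCT OXPT replicate 3 is red in most rows and WT untreated replicate 2 blue, while *RPS27L* at the top and *RPL3* at the bottom separate OXPT from untreated libraries.

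Levels between members are given as CPM per kb of the Ensembl canonical transcript, as means over 24 libraries. *RPS18*, of the small subunit, stood highest at 6054, followed by *RPL8* at 5912 and *RPS2* at 5587. The ribosomal stalk, the lateral arm that recruits elongation factors, had 3589 for *RPLP2*, 3572 for *RPLP0* and 2586 for *RPLP1*. *RPSA*, *RPS6* and *RPS3* of the small subunit were at 2778, 1856 and 1649, and *RPL5* and *RPL11* at 1613 and 1890. *RPS27* was at 3548 and its paralogue *RPS27L* at 40.0. The canonical transcript of *RPS27L* is listed with 6110 nt and that of *RPS27* with 352 nt, so the per-length gap depends on the transcript chosen. Per library and without length, *RPS27* had a mean of 1249 CPM and *RPS27L* 244.5 CPM.

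The lowest members were the tissue-restricted paralogues *RPL3L*, known from muscle, *RPL10L*, known from testis, and *RPL39L*, at 0.478, 0.265 and 0.166 CPM per kb. Their parent genes *RPL3*, *RPL10* and *RPL39* were at 2339, 703 and 1149. *RPL17*, *RPL36A* and *RPS10* were also low, at 11.7, 10.4 and 7.78, although they encode constant parts of the ribosome. These 3 share exon bases with the readthrough genes *RPL17-C18orf32*, *RPL36A-HNRNPH2* and *RPS10-NUDT3*, whose shared reads are counted for neither gene, and pseudogenes named after them held 94.1%, 88.6% and 83.2% of the counts on both. The values of these 3 members are uncertain. Among other members named here, the pseudogene part was 17.8% for *RPS3A*, 15.8% for *RPL41*, 13.9% for *RPL22* and 13.7% for *RPS2*. In all, 46 of the 81 members share exon bases with another listed gene. Over all members, 1588 pseudogenes named after 77 of them held 0.35% of the counts.

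**Figure D3:**
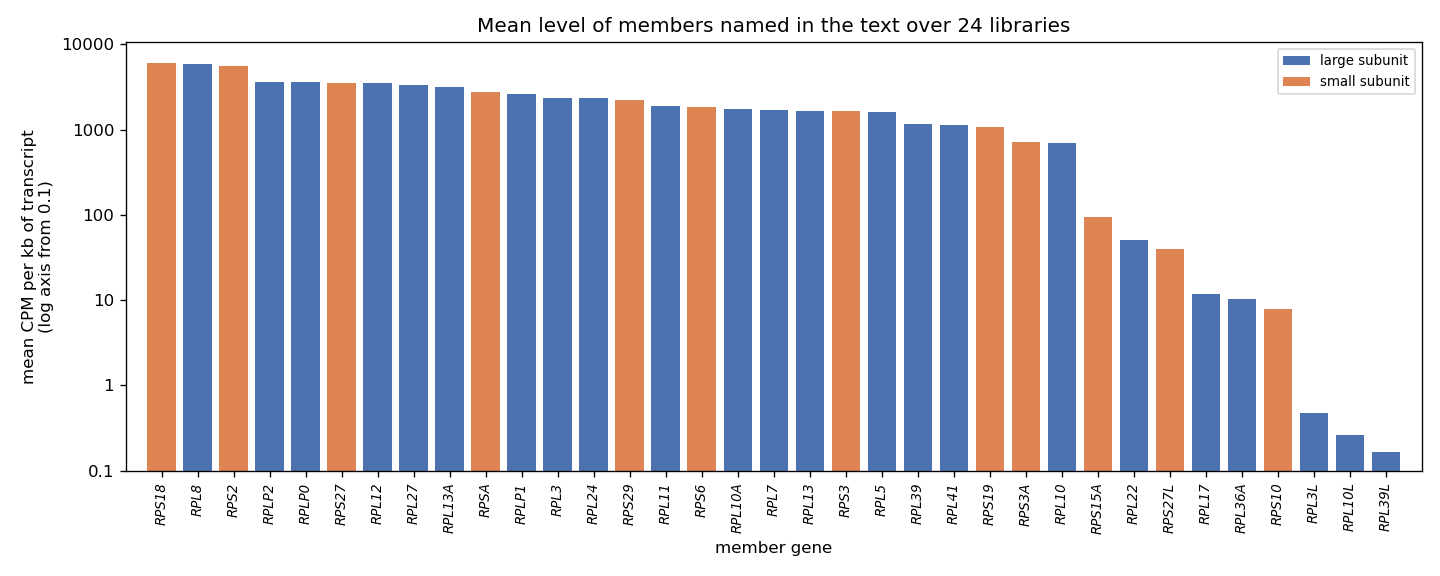
Mean level of the members named in the text over 24 libraries in CPM per kb of canonical transcript (logarithmic vertical axis that starts at 0.1), ordered from high to low and coloured by subunit. *RPS18* leads at 6054, and *RPL3L*, *RPL10L* and *RPL39L* stand below 1.

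After OXPT, *RPS27L* was the member that rose in each of the 4 comparisons of OXPT with untreated cells. In KO esiCT it was at 90.4, 75.3 and 98.6 CPM untreated and 338, 359.8 and 706 with OXPT. In KO esiHDAC4 the values were 100.1, 90.9 and 87.9 and 311, 379 and 458. In KO #11 they were 73.9, 98.4 and 82.9 and 345, 419 and 398. WT cells had 78.1, 58.5 and 117 untreated and 329, 337 and 438 with OXPT. All 12 OXPT libraries lay above all 12 untreated libraries. The log2 fold change ± SE was 2.41 ± 0.28 in KO esiCT (5.31-fold, adjusted p = 1.15e-05), 2.04 ± 0.27 in KO esiHDAC4 (adjusted p = 4.94e-05), 2.19 ± 0.27 in KO #11 (adjusted p = 3.01e-05) and 2.12 ± 0.27 in WT (adjusted p = 3.62e-05), by edgeR's quasi-likelihood test over 12356 genes. Each of the 4 calls held in every alternative run, including each fit with 1 library left out.

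The paralogue *RPS27* did not pass the test in any of the 4 comparisons. It was at 906, 882 and 1201 CPM in untreated KO esiCT and 928, 1011 and 3748 with OXPT, where replicate 3 stands far above the others. In KO #11 it was at 1192, 1448 and 1075 and 1224, 1643 and 1146, and the groups overlapped. Its log2 fold changes were 0.93, 0.34, 0.11 and 0.18 in KO esiCT, KO esiHDAC4, KO #11 and WT, with adjusted p from 0.163 to 0.909. In KO esiCT it was -0.04 without OXPT replicate 3, and it was called (0.81, adjusted p = 0.0316) when no count filter was used. The number of *RPS27L* reads per 100 *RPS27* reads, which needs no scaling between libraries, was 9.98, 8.54 and 8.21 in untreated KO esiCT and 36.4, 35.6 and 18.8 with OXPT. In WT it was 7.18, 10.5 and 7.7 and 29.1, 33.6 and 30.3. The ratio was higher in every OXPT library than in every untreated one, also in KO esiCT OXPT replicate 3, where it was lowest among OXPT libraries.

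The p53 targets *CDKN1A*, a cell cycle inhibitor, and *MDM2*, the ligase that degrades p53, are given beside *RPS27L*. *CDKN1A* was at 319.8, 303 and 390.4 CPM in untreated KO esiCT and 2879, 2542 and 3752 with OXPT, and it rose in the 4 comparisons by log2 fold changes of 3.18, 3.10, 2.55 and 2.55. In WT it was at 380.8, 287.7 and 1221 CPM untreated, with replicate 3 far above the others, and at 3099, 3121 and 4821 with OXPT. *MDM2* rose by 2.58, 2.25, 2.42 and 1.84. In WT OXPT, however, *MDM2* was at 366, 353 and 54.5 CPM, and replicate 3 lay below the untreated values of 57.3, 91.5 and 67.9.

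**Figure D4:**
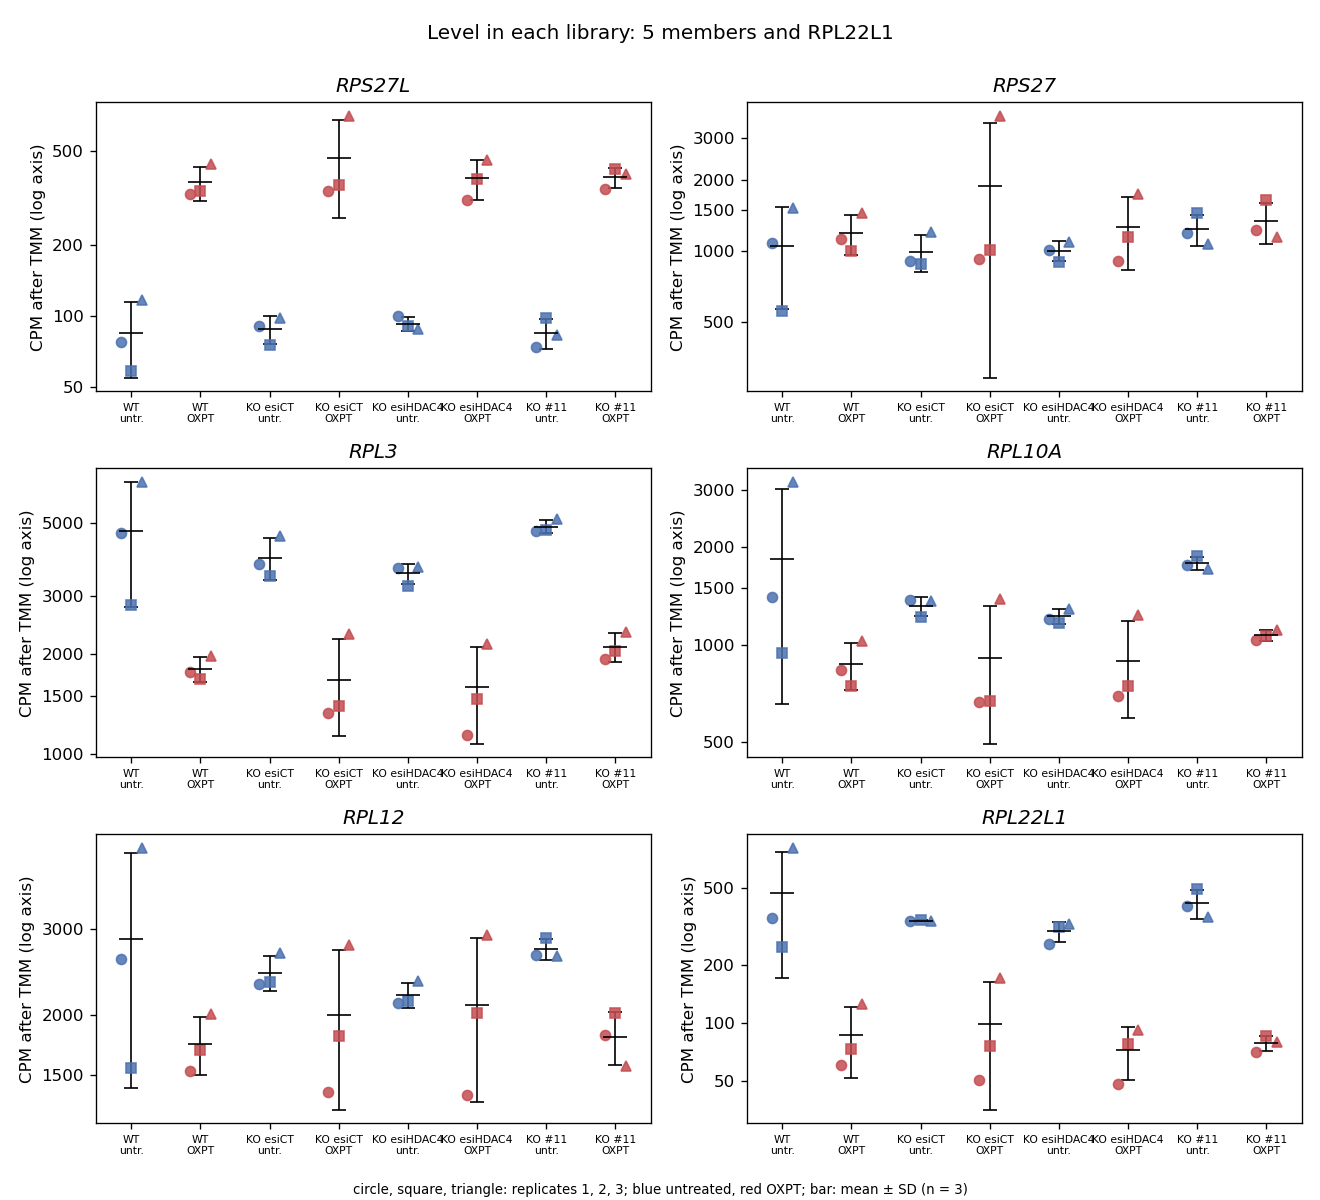
CPM after TMM (logarithmic vertical axis) of *RPS27L*, *RPS27*, *RPL3*, *RPL10A*, *RPL12* and *RPL22L1* in each library of the 8 groups, with mean ± SD (n = 3). *RPS27L* is above 300 in every OXPT library and below 120 in every untreated one, and *RPL3* is lower with OXPT in each pair of groups, while *RPS27* overlaps.

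*RPL3*, a core protein near the peptidyl transferase centre, fell in the 4 OXPT comparisons. It was at 3769, 3460 and 4567 CPM in untreated KO esiCT and 1329, 1392 and 2305 with OXPT. In KO esiHDAC4 it was at 3660, 3235 and 3673 and 1143, 1465 and 2157, and in KO #11 at 4734, 4773 and 5143 and 1933, 2047 and 2341. In WT the values were 4673, 2821 and 6690 and 1771, 1679 and 1983. The untreated and OXPT libraries did not overlap in any of the 4. Log2 fold changes were -1.23 ± 0.28 (2.35-fold lower, adjusted p = 0.00613), -1.15 ± 0.28 (adjusted p = 0.0092), -1.21 ± 0.28 (adjusted p = 0.00804) and -1.38 ± 0.28 (adjusted p = 0.00267), in the order KO esiCT, KO esiHDAC4, KO #11 and WT. The call was lost with only the 2 groups compared in the fit, at adjusted p = 0.064 in KO esiCT and 0.156 in WT. It was also lost without KO esiHDAC4 OXPT replicate 2 (adjusted p = 0.0534) and, in KO #11, without KO #11 OXPT replicate 1 (adjusted p = 0.05).

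*RPL10A*, a protein of the L1 stalk, fell in WT and was lower without passing the test in KO cells. In WT it was at 1405, 942 and 3192 CPM untreated and 836, 747 and 1031 with OXPT, so untreated replicate 2 lay within the OXPT range, and the log2 fold change was -1.08 ± 0.34 (adjusted p = 0.0456). In KO #11, where the groups did not overlap, it was at 1763, 1881 and 1717 and 1032, 1066 and 1113, with a log2 fold change of -0.74 ± 0.34 (adjusted p = 0.191). In KO esiCT and KO esiHDAC4 the log2 fold changes were -0.54 and -0.46. The WT call rested on untreated replicate 3: without it the log2 fold change was -0.42 (adjusted p = 0.305), and it was lost in 16 of the 24 fits that left out 1 library. Without the 3 libraries with most unmapped reads, *RPL10A* passed the threshold in KO esiCT (log2 fold change -0.86), KO esiHDAC4 (-0.68) and KO #11 (-0.75). In WT its adjusted p was then 0.0437 and its log2 fold change -0.40, a fold under 1.5. The genotype by OXPT interaction for *RPL10A* was 0.55 ± 0.48 (adjusted p = 1 over all genes), so a difference between WT and KO was not detectable.

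*RPL12*, which sits at the base of the stalk, was next to these at the low end in WT and KO #11. It was at 2654, 2884 and 2642 CPM in untreated KO #11 and 1813, 2016 and 1568 with OXPT, and at 2606, 1553 and 4424 and 1532, 1688 and 2004 in WT. The groups did not overlap in KO #11 and overlapped in WT, and the log2 fold changes, -0.60 (adjusted p = 0.256) and -0.72 (adjusted p = 0.154), did not pass the test.

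Of the 78 members, 1 was called higher in each OXPT comparison, against 6.23% of all genes tested in KO esiCT, 6.44% in KO esiHDAC4, 5.94% in KO #11 and 5.1% in WT. Called lower were 1 member in each KO comparison and 2 in WT, against 5.08%, 5.54%, 3.57% and 5.6% of all genes in the same order. The calls needed an adjusted p under 0.05 and a fold over 1.5. DESeq2 called 3, 2, 2 and 3 members in the 4 comparisons, with *RPS15A* added in KO esiCT. By edgeR the log2 fold change of *RPS15A* there was -0.01 without OXPT replicate 3. The shares of all genes that DESeq2 called are not given, here or for the comparisons below. An unadjusted p under 0.05 was reached by 11, 4, 3 and 5 members, or 14.1%, 5.13%, 3.85% and 6.41%, against 26.1%, 25.4%, 23.5% and 24.7% of all genes tested.

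The median log2 fold change of the 78 members was 0.43 in KO esiCT, 0.29 in KO esiHDAC4, 0.12 in KO #11 and 0.03 in WT, with all-gene medians of 0.01, 0.02, -0.00 and -0.06. Values above 0 were found for 67, 70, 65 and 44 members. The 1038 other tested genes with canonical transcripts under 1000 nt had medians of 0.43, 0.27, 0.17 and 0.06 in the same comparisons. The member medians rested on the libraries that stand apart. Without KO esiCT OXPT replicate 3 the KO esiCT median was -0.12, without KO esiHDAC4 OXPT replicate 3 the KO esiHDAC4 median was 0.02, and the WT median was 0.39 without untreated replicate 3 and -0.21 without untreated replicate 2. The KO #11 median stayed between 0.06 and 0.16 over the 24 fits that left out 1 library. With the 3 libraries with most unmapped reads left out, the medians were 0.00 in KO esiCT and 0.41 in WT, and 12 members (15.4%) were called in WT, where that fit called 25.1% of all genes, *RPS27L*, *RPL3*, *RPL11*, *RPL27*, *RPLP1* and *RPS19* among them.

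**Figure D5:**
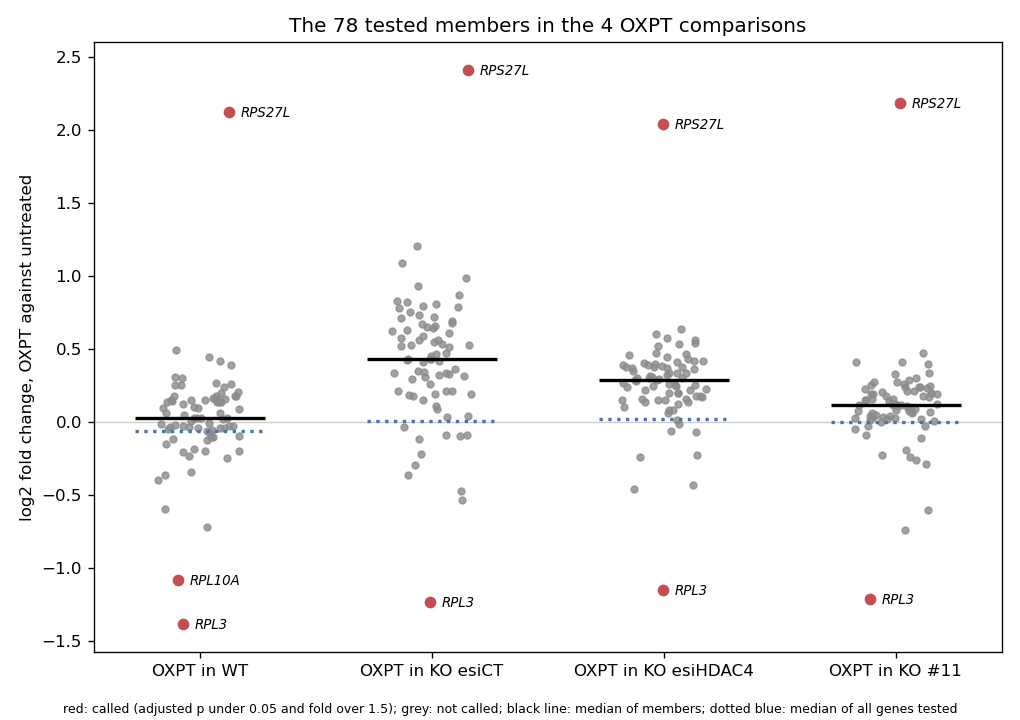
Log2 fold change of OXPT against untreated cells for the 78 tested members (points, jittered sideways) in the 4 comparisons, with called members in red, the member median as a black line and the median of all genes tested as a dotted blue line. *RPS27L* lies above 2 and *RPL3* below -1.1 in each comparison, and the remaining members lie highest as a body in KO esiCT, with a median of 0.43.

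Large and small subunit genes were also described apart, with no test. In KO esiCT the median log2 fold change was 0.41 over 46 large subunit genes and 0.52 over 32 small subunit genes, in KO esiHDAC4 0.26 and 0.32, in KO #11 0.12 and 0.12, and in WT 0.02 and 0.13. Without KO esiCT OXPT replicate 3 the KO esiCT medians were -0.18 and -0.07. Members whose start window held a motif had medians of 0.45, 0.27, 0.14 and 0.03 in KO esiCT, KO esiHDAC4, KO #11 and WT, and those without one 0.45, 0.29, 0.13 and 0.06. Without that library the KO esiCT medians were -0.12 and -0.09. Outside *RPS27L*, *RPL3* and *RPL10A*, the members in KO #11 ranged from -0.60 for *RPL12* to 0.47 for *RPS19*.

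The highest members after *RPS27L* differed between the comparisons, and none of them passed the test. In KO esiCT they were *RPS15A*, at 1.20 ± 0.44 (adjusted p = 0.0815), and *RPS29*, at 1.08 ± 0.43 (adjusted p = 0.113), both of the small subunit. *RPS15A* was at 154, 154 and 192 CPM untreated and 143, 189.6 and 821 with OXPT, and only replicate 3 lay above the untreated range. Without it the log2 fold changes were -0.01 for *RPS15A* and 0.03 for *RPS29*. *RPS29* showed the same pattern, with 496, 445 and 598 and 495, 552 and 2220. In KO esiHDAC4 the next highest were *RPL27* (0.64) and *RPL24* (0.60), in KO #11 *RPS19* (0.47) and *RPL24* (0.41), and in WT *RPL7* (0.49, adjusted p = 0.0878) and *RPS3A* (0.45). *RPS19*, the member most often mutated in Diamond-Blackfan anaemia, was at 1818, 1983 and 1853 CPM in untreated KO #11 and 2562, 2851 and 2421 with OXPT, which did not overlap. *RPL7* was at 1845, 1607 and 1352 CPM in untreated WT and 2170, 1873 and 2730 with OXPT, which did not overlap either.

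At the low end, *RPL13A*, known as part of the interferon-induced GAIT complex, was the next lowest in KO esiCT after *RPL3* and *RPL10A*, with 3119, 2983 and 4457 CPM untreated and 2445, 2404 and 2777 with OXPT. The groups did not overlap, and the log2 fold change was -0.47 ± 0.27 (adjusted p = 0.278). *RPL22* held the same place in KO esiHDAC4, with 123, 106 and 122 and 90.2, 76 and 93.9 CPM, also without overlap, and a log2 fold change of -0.43 ± 0.23 (adjusted p = 0.239). In the edgeR fit without KO esiCT OXPT replicate 3, *RPL22* was called lower in KO esiCT (log2 fold change -0.655, adjusted p = 0.0291). *RPL13A* was not called there (-0.54, adjusted p = 0.324). Members whose groups did not overlap were 3 above and 2 below in KO esiCT, 6 and 3 in KO esiHDAC4, 16 and 7 in KO #11, and 4 and 1 in WT. Over all genes tested these shares were 15.3% and 14.8%, 18.8% and 16.6%, 22.4% and 20.1%, and 11.5% and 9.8%.

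The stalk proteins did not pass the test. *RPLP0*, the stalk base, was at 4113, 3620 and 3803 CPM in untreated KO esiCT and 3390, 2937 and 4475 with OXPT, and its log2 fold changes lay between -0.25 in WT and 0.08 in KO esiHDAC4. *RPLP1* had log2 fold changes of 0.68, 0.43, 0.20 and 0.03, and *RPLP2* of 0.79, 0.39, 0.25 and 0.14, in the order KO esiCT, KO esiHDAC4, KO #11 and WT. Both were highest in KO esiCT OXPT replicate 3, with 7080 CPM for *RPLP1* and 4292 CPM for *RPLP2*, and without that library their KO esiCT values were -0.02 and 0.03, with -0.28 for *RPLP0*.

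The MDM2-binding pair did not pass the test either. *RPL5* was at 1550, 1551 and 1677 CPM in untreated KO esiCT and 1303, 1397 and 2823 with OXPT, and its log2 fold changes were 0.21, -0.01, -0.11 and 0.06 in the same order. *RPL11* was at 1715, 1742 and 1670 CPM in untreated KO #11 and 2150, 2409 and 1905 with OXPT, without overlap, and its log2 fold changes were 0.71, 0.57, 0.33 and 0.16. Without KO esiCT OXPT replicate 3, KO esiCT had -0.24 for *RPL5* and 0.10 for *RPL11*. The lowest adjusted p of the pair with all libraries was 0.226.

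Small subunit proteins with known roles outside or at the edge of the ribosome had small differences. *RPSA*, also known as a laminin receptor, had log2 fold changes between 0.16 and 0.37, *RPS3*, also known as a DNA repair endonuclease, between -0.07 and 0.26, and *RPS6* between -0.04 and 0.20. *RPS6* was at 2703, 1662 and 2969 CPM in untreated WT and 2656, 2329 and 2160 with OXPT. *RPL41*, which encodes the smallest ribosomal protein, lay between -0.20 and 0.26. In KO esiCT, *RPSA*, *RPL41*, *RPS3* and *RPS6* had 0.01, -0.23, -0.29 and -0.24 without OXPT replicate 3. *RPL10* and *RPL39*, the parent genes of untested paralogues, had 0.43 and 0.73 in KO esiCT (-0.27 and 0.10 without OXPT replicate 3) and -0.03 and 0.23 in KO #11. Of the exon bases of *RPL10*, 53.4% are shared with other listed genes, so its level is a lower bound on its reads.

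No member was called for silencing of *HDAC4* or for #11. These comparisons share the KO esiCT libraries. For esiHDAC4 against esiCT in KO cells, 0 of 78 members were called untreated, where 0.00809% of all genes were called, and 0 with OXPT, where 0% were called. An unadjusted p under 0.05 was reached by 0 and 1 members (0% and 1.28%, against 3.19% and 3.08% of all genes). For #11 against esiCT, 0 members were called untreated, where 0.51% of all genes were called, and 0 with OXPT, where 0.121% were called, and an unadjusted p under 0.05 was reached by 1 and 2 members (1.28% and 2.56%, against 13.8% and 10.2% of all genes). DESeq2 called 0 members in each of these comparisons. *RPS27L* had log2 differences of 0.08 ± 0.26 untreated and -0.29 ± 0.26 with OXPT for esiHDAC4, and -0.05 ± 0.26 and -0.27 ± 0.26 for #11. For *RPL3* they were -0.16 ± 0.28, -0.08 ± 0.28, 0.31 ± 0.28 and 0.33 ± 0.28 in the same order.

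In untreated cells, 22 members were higher in every #11 library than in every esiCT library and 3 were lower, 28.2% and 3.8% of members, against 17.2% and 14.8% of all genes tested. *RPL3* was at 4734, 4773 and 5143 CPM with #11 and 3769, 3460 and 4567 with esiCT, and *RPL10A* at 1763, 1881 and 1717 and 1373, 1219 and 1363, both without overlap. Neither passed the test (adjusted p = 0.686 and 0.632). The member median was 0.16 untreated. With OXPT it was -0.16 for #11 and -0.26 for esiHDAC4, and both turned positive without KO esiCT OXPT replicate 3, at 0.39 and 0.33. When the replicates numbered 3 were left out throughout, 3 members (3.85%) were called for #11 with OXPT, *RPL10A*, *RPL13* and *RPL22*, and 1 (1.28%) for untreated #11, *RPS3A*, where those fits called 11.5% and 14.5% of all genes.

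No member was called between KO and WT either, again with the KO esiCT libraries. Untreated, 0 of 78 members were called, where 0.291% of all genes were, and with OXPT 0, where 0.138% were, with 0 and 1 members at an unadjusted p under 0.05 (0% and 1.28%, against 5.74% and 5.4% of all genes) and 0 called by DESeq2. The member median was -0.18 untreated, and 0.20 without WT untreated replicate 3. With OXPT it was 0.23, and -0.35 without KO esiCT OXPT replicate 3. *RPS27L* differed by 0.06 ± 0.26 untreated and 0.35 ± 0.26 with OXPT, and *RPL3* by -0.27 ± 0.28 and -0.11 ± 0.28.

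The 3 interactions asked whether the OXPT response differed with genotype, esiHDAC4 or #11. None called a member, and 0% of all genes were called in each, with 1, 0 and 0 members at an unadjusted p under 0.05, against 1.63%, 0.154% and 6.98% of all genes, and 0 by DESeq2. For *RPS27L* the interaction was 0.29 ± 0.37 with genotype, -0.37 ± 0.37 with esiHDAC4 and -0.22 ± 0.37 with #11, and for *RPL3* 0.15 ± 0.39, 0.08 ± 0.39 and 0.02 ± 0.39. With these errors a difference in response was not detectable, which does not show that the responses are alike. The member medians of 0.44, -0.16 and -0.31 became -0.19, 0.41 and 0.21 without KO esiCT OXPT replicate 3, and the first was 0.04 without WT untreated replicate 3.

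Ribosomal protein genes outside the naming rule held 1 further gene that fell. *RPL22L1*, the paralogue of *RPL22*, was at 339, 341 and 337 CPM in untreated KO esiCT and 50.1, 75.8 and 171 with OXPT, at 405, 495 and 356 and 70.7, 85.2 and 79.2 in KO #11, and at 352, 249 and 816 and 60.2, 72.8 and 125 in WT. Its log2 fold changes were -1.78 ± 0.41 (adjusted p = 0.0075), -2.05 ± 0.42 (adjusted p = 0.00267), -2.42 ± 0.42 (adjusted p = 8.77e-04) and -2.46 ± 0.42 (adjusted p = 6.74e-04) in KO esiCT, KO esiHDAC4, KO #11 and WT. *RPL22L1* reads per 100 *RPL22* reads were 318, 380 and 275 in untreated KO #11 and 71.1, 76 and 68.5 with OXPT. Of the 6 genes in this list it was the only one called in KO esiCT, KO esiHDAC4 and WT. *RPL36AL* was also called in KO #11, with a log2 fold change of 0.83. *FAU* had 1.14 in KO esiCT, or 0.21 without KO esiCT OXPT replicate 3, and did not pass the test.

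Other lists of the pathway are given for comparison. Of 19 tested TOP mRNAs that encode no ribosomal protein, such as elongation factors, 0, 1, 0 and 1 were called in KO esiCT, KO esiHDAC4, KO #11 and WT. All were lower, where 5.08%, 5.54%, 3.57% and 5.6% of all genes were called lower. By edgeR, 2, 4, 3 and 6 of them had an unadjusted p under 0.05, as did 26.1%, 25.4%, 23.5% and 24.7% of all genes. Their medians were -0.40, -0.32, -0.15 and -0.23. The called gene was *PABPC1*, the poly(A) binding protein, with -0.67 in KO esiHDAC4 and -0.65 in WT, while *EEF1D*, *EIF4B* and *EEF1A1* had -0.93, -0.72 and -0.72 in KO esiCT without passing, or -0.52, -0.48 and -0.40 without OXPT replicate 3. Of 10 dedicated chaperones and assembly factors of ribosomal proteins, 0 were called in the 4 comparisons by edgeR. The shares of all genes called higher and lower are those given in this paragraph. An unadjusted p under 0.05 was reached by 2, 2, 0 and 0 of the 10, against 26.1%, 25.4%, 23.5% and 24.7% of all genes. *PDCD2L*, *RPF2* and *GRWD1* had 1.01, 0.60 and 0.40 in KO esiCT, or 0.42, 0.54 and 0.45 without OXPT replicate 3. The medians of the 10 were 0.32, 0.37, 0.28 and 0.33. Of 76 tested genes for mitochondrial ribosomal proteins, 0, 0, 6 and 5 rose and 0 fell, where 6.23%, 6.44%, 5.94% and 5.1% of all genes were called higher, with medians of 0.21, 0.24, 0.27 and 0.20. An unadjusted p under 0.05 was reached by 14, 12, 18 and 16 of them by edgeR, against 26.1%, 25.4%, 23.5% and 24.7% of all genes. *MRPL39* and *MRPL49* rose in both KO #11 and WT.

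Of 14 regulators of ribosomal protein synthesis, 3, 2, 0 and 3 fell with OXPT in KO esiCT, KO esiHDAC4, KO #11 and WT, and 0 rose, where 5.08%, 5.54%, 3.57% and 5.6% of all genes were called lower. By edgeR, 4, 3, 2 and 3 of them had an unadjusted p under 0.05, as did 26.1%, 25.4%, 23.5% and 24.7% of all genes. *RPTOR*, which binds mTORC1 substrates, had a log2 fold change of -1.12 in KO esiCT, a fall past the threshold, with 70.6, 91.6 and 77.8 CPM untreated and 33.3, 42.3 and 34.5 with OXPT. *MLST8*, another mTORC1 subunit, and *TSC2*, an inhibitor of mTORC1, had -0.90 and -0.72 in KO esiCT, both called. *MYC*, a transcription factor that drives ribosome synthesis and whose protein FBXW7 marks for degradation, was the only one of the 14 called between KO and WT. It was at 94.9, 139 and 103 CPM in untreated KO esiCT and 231, 317 and 315 in untreated WT, with log2 differences of -1.36 ± 0.21 (adjusted p = 0.00237) untreated and -1.26 ± 0.21 (adjusted p = 0.00784) with OXPT.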

How the data were processed

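The deposited files, 1 per library, hold counts of reads per gene made by the authors, whole and not normalized, with an unstranded column and 1 column per strand, per the file headers and the layout of STAR output. The submitters' processing notes name Trimmomatic 0.39, STAR 2.7.11a and hg38, and the annotation version is not given in the sources used here. Only uniquely mapped reads are counted, so reads shared with pseudogenes or overlapping genes are lost. The study's own tests used another route, salmon with DESeq2. Identifiers were named with GENCODE 44, which matched 99.9% of 62757. The kit is labelled stranded, but both strands held equal totals, so the unstranded column was used.

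Groups came from the labels, and 12 WT libraries with conflicting entries were left out. One edgeR 4.0.16 model (R 4.3.3) of 24 libraries with TMM scaling and the quasi-likelihood F test was fitted to the 12356 genes whose count averaged 64 or more in some group. A gene was called where its p, adjusted over all genes by Benjamini-Hochberg, was under 0.05 and its fold over 1.5, in 13 comparisons. CPM values are after TMM, except for *FBXW7* and *HDAC4*, where totals were used unscaled. The SE is the size of the log2 fold change divided by the square root of F, an approximation. Scripts were tested on simulated data. DESeq2 1.42.0 was an alternative.

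Named members were those called in any comparison, the 3 highest and lowest in each OXPT comparison, the stalk proteins, RPL5, RPL11, the paralogue pairs, RPSA, RPS3, RPS6, RPS19 and RPL41, *CDKN1A* and *MDM2*, with up to 3 genes of the other lists by largest change in KO esiCT. *PABPC1*, *RPL36AL*, *MYC*, *MRPL39*, *MRPL49* and *RPL13*, the levels of *RPS18*, *RPL8*, *RPS2*, *RPL17*, *RPL36A* and *RPS10*, and the markers printed were chosen after their values were seen. The members and lists were chosen with earlier results of these data known. Same-numbered replicates correlated above 0.1 in every pair except in the #11 comparisons against esiCT and the #11 interaction (lowest correlation -0.39). The main fit held no term for replicate number, so its p-values and SEs leave this pairing unused. The p-values measure the spread between these libraries, and no 2 libraries of a group agreed within counting noise. Depth was 10725966 to 20527222 counts per library. Values of some single genes are not reported here.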

Additional observations from a re-analysis of the deposited data

Results flagged for a closer look

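*RPS27L* stood above the highest untreated library, at 109.6 CPM unscaled by TMM, in 8 of the 12 WT libraries that entered no comparison because their label entries give opposite OXPT states. This signal lies in data that no comparison used. Among the libraries titled WT PROTAC11 OXPT it was at 282.8, 345.8 and 224.6 CPM, and among those titled WT siHDAC4 OXPT at 314.9, 315.2 and 386.5 CPM. The libraries titled WT PROTAC11 replicate 3 and WT siHDAC4 UNT replicate 1 were at 151.3 and 114.3 CPM. In the first of these, members held 20.3% of counts, the highest share of any library, and *RPL3* was at 7184 CPM. The second lay close to the cut of 109.6 CPM. The other 4 lay between 64.2 and 108 CPM. Their state cannot be settled from the labels, and no group was formed from these values.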

How the results depend on the processing

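*RPS27L* kept its call in the 4 OXPT comparisons in every setting. Of 10400 planned values for named members, 21 lost and 11 gained a call and 0 reversed. Nearly all of these values were not called in the main fit and had no call to lose. The total is therefore no measure of how firm the calls are. Calls of *RPL3* and *RPL10A* were lost in some settings, as given above. In the 13 comparisons, 409 of 416 planned counts of called members stayed within 1.5 times and 408 of 416 medians within 1 SD between replicates (0.38 on the log2 scale). These bounds say little about stability. In the main fit members were called only in the 4 OXPT comparisons, so most counts started at 0. A median could also change sign within the bound. For KO against WT untreated, it went from -0.18 to 0.20 without WT untreated replicate 3. In KO esiCT the count of called members was 6 (7.41%) without a count filter, where 4.35% of all genes were called. That setting added RPL37A, RPS15A, RPS27 and RPS29. With only the groups compared in the fit, the count was 1 in KO esiCT, 4 in KO #11 and 1 in WT. The all-gene shares of those fits are not given here. Leaving out the replicates numbered 3 was an alternative added once the data had been seen. The count was then 4 (5.13%) in KO esiCT, 1 (1.28%) for untreated #11 and 3 (3.85%) for #11 with OXPT. Those fits called 17.4%, 14.5% and 11.5% of all genes. The medians were -0.064 for OXPT in KO esiCT, 0.37 for #11 with OXPT and -0.19 for KO against WT with OXPT. For the interactions with genotype and #11 they were -0.31 and 0.094. Leaving out the 3 libraries with most unmapped reads was also added later. The count was then 4 (5.13%) in KO esiCT, 4 (5.13%) in KO #11 and 12 (15.4%) in WT. Those fits called 14.5%, 17.2% and 25.1% of all genes. The medians were 0.003 for OXPT in KO esiCT, 0.41 in WT, 0.23 for #11 with OXPT and -0.28 for KO against WT with OXPT. For the 2 interactions they were -0.46 and 0.11. The cause was not tested.

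Leaving out 1 library at a time gave 2 to 6 called members in KO esiCT (6 without KO esiCT OXPT replicate 1), 1 to 2 in KO esiHDAC4, 1 to 2 in KO #11 and 2 to 4 in WT. The all-gene shares of these fits are not given here. The medians ran from -0.12 to 0.70 for OXPT in KO esiCT, -0.53 to 0.33 for esiHDAC4 with OXPT, -0.40 to 0.39 for #11 with OXPT, -0.35 to 0.48 for KO against WT with OXPT, and -0.19 to 0.69, -0.43 to 0.41 and -0.54 to 0.21 for the interactions with genotype, esiHDAC4 and #11. The reverse-strand column gave member shares of 10.7%, 10.5%, 12.2% and 11.8% in untreated KO esiCT, untreated KO esiHDAC4, untreated KO #11 and KO #11 with OXPT, and TMM scaling gave 10.8% in untreated KO esiHDAC4 and 12.8% in untreated KO #11. Libraries that stand apart moved further with TMM. KO esiCT OXPT replicate 3 went from 18.8% to 24.0%, WT untreated replicate 3 from 16.2% to 19.2% and WT untreated replicate 2 from 8.27% to 7.86%. The replicate block left the called counts at 2, 2, 2 and 3 in the 4 OXPT comparisons and at 0 elsewhere, and the KO esiCT median at 0.34. The all-gene shares of the fit with that block are not given either. Depth limits *RPL3L*, *RPL10L* and *RPL39L*, which were near 0.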
